A study of Meleagris gallopavo with 3 samples.

Results

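Satellite cells are the stem cells of skeletal muscle, and in adherent culture they can be kept dividing or be turned towards fusion into myotubes by a change of medium. The differentiated adherent culture of turkey satellite cells was set here against the undifferentiated adherent culture, gene by gene, over the 10757 genes of 23976 in the table that reached 5 CPM (counts of exon reads scaled to the library total) in at least 1 of the 2 libraries. The cells came from the breast muscle of 1-day-old turkeys and were expanded for 2 weeks before the groups were formed. The differentiated cells then received medium with 4% horse serum, and the undifferentiated cells stayed on gelatin in medium with 15% chicken serum. Another culture was grown in suspension for 3 months before its RNA was isolated. All groups went through several passages, and the study gives no such time for the adherent groups. RNA of 3 experiments was pooled in each group, and each group is 1 library, so nothing below has a replicate error, an SD or a p-value. The libraries are called Differentiating, Adherent and Suspension, as the count columns are headed, and they held 22816125, 17444865 and 23844835 exon reads in that order.

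The headings carry a doubt that touches every ratio. Each deposited fold change between 2 libraries can be traced to the 2 count columns it was made from, over genes with at least 10 reads in both columns and with sizes taken as matching within 0.02 on the log2 scale. The one headed Suspension against Differentiating matched the ratio of the Adherent and Differentiating counts in 100% of 12207 genes, and the one headed Adherent against Differentiating matched the ratio of the Suspension and Differentiating counts in 100% of 12154 genes. The fold change headed Suspension against Adherent matched the columns of those names. It would do so under either reading, because only sizes were compared. The study's text also gives as adherent the levels that stand in the column headed Suspension. The files do not settle which of the 2 columns holds the undifferentiated adherent culture. The ratio of Differentiating over Adherent is therefore given first, as the count columns are headed, and the ratio of Differentiating over Suspension, which would be the wanted one if the headings were exchanged, is given as counts, a median or a summed level for each gene group and as values for many of the genes.

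A call is a ratio of 2-fold or more, and a gene that reached 5 CPM in only 1 of the libraries was kept through the one where it is higher, so counts of members follow in part from the filter. Among the 10757 genes, 1941 (18%) were called higher in the Differentiating library than in the Adherent library and 2479 (23%) were called lower, which are the shares against which the counts of every gene group below are read. The median log2 ratio was -0.06, with quartiles at -0.90 and 0.69. The genes called higher took 41.3% of the exon reads of the Differentiating library, against 8.79% of those of the Adherent library. The genes called lower took 7.60% of the reads of the Differentiating library, against 37.4% of those of the Adherent library. Changes of at least 16-fold were seen in 152 genes that were higher and in 482 that were lower. The exact 95% counting interval of the log2 ratio lay wholly above 0 in 4457 genes, wholly below 0 in 4981 and across 0 in 1319, and this interval says nothing of how much cultures of 1 kind differ. Median-of-ratios scaling in place of library totals moved the median to 0.10 and gave 2322 genes higher and 2206 lower, so which direction held more genes depends on the scaling. With the headings exchanged, 826 of the 10141 genes at 5 CPM or more in Differentiating or Suspension (8.15%) were called higher and 1430 (14.1%) lower. The gene groups below are counted against Suspension over the members kept against Adherent, so these shares rest on another choice of genes.

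**Figure D1:**
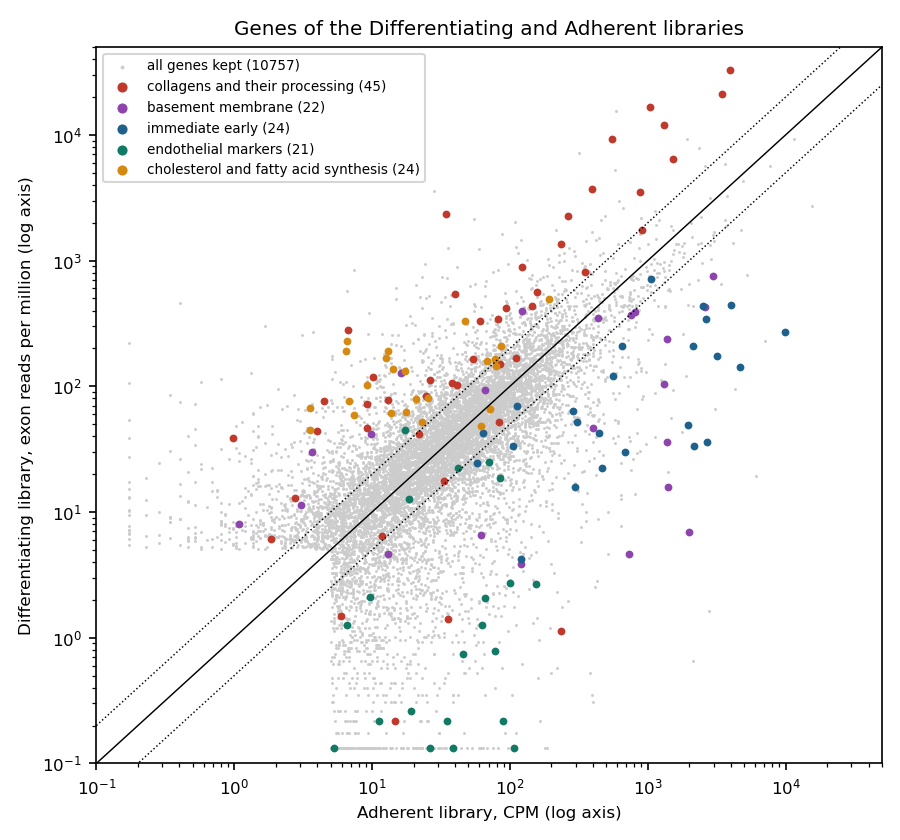
CPM of each of 10757 genes in the Adherent library (x, log axis) and in the Differentiating library (y, log axis), with 3 or fewer reads drawn at 3 reads, the solid line at equal values and the dotted lines at 2-fold. Collagens and their processing genes (red) lie mostly above the upper line, with COL1A2 at 32780.2 against 3977 CPM. Immediate early genes (blue) and basement membrane genes (purple) lie mostly below the lower one. All 21 endothelial markers (green) reached 5 CPM in Adherent and only 5 did in Differentiating, so their position follows in part from the filter.

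Contractile genes were more often lower than higher in the culture labelled as differentiated. Of 61 genes of the thick filament, the thin filament and the Z-disc, 13 were higher by 2-fold or more in the Differentiating library and 26 lower, with a median log2 ratio of -0.55. TTN, the giant spring protein of the sarcomere, had 438 CPM in the Differentiating library, against 1179 CPM in the Adherent library, a log2 ratio of -1.43 (95% counting interval -1.46 to -1.39). ACTA1, the skeletal muscle actin, had 1756 CPM in the Differentiating library, against 4739 CPM in the Adherent library, a log2 ratio of -1.43. DES, the muscle intermediate filament desmin, was nearly level at 940.3 CPM in Differentiating and 1064 CPM in Adherent. Of the 8 muscle markers taken as defining, 2 were not analysed here, DES lay within 2-fold, and the other 5 were at least 2-fold lower in the Differentiating library. They were ACTA1 and TTN of the contractile apparatus, and MYOD1, MYF5 and PAX7 of satellite cells and myoblasts. PAX7 was at a level under the threshold. Against Suspension, ACTA1 was level (log2 ratio 0.05) and DES was lower (-1.56), while TTN, MYOD1, MYF5 and PAX7 were again at least 2-fold lower. Read against the Suspension library, the same 61 genes had 2 higher and 45 lower, at a median of -1.73, so more of these genes were lower than higher in the Differentiating library under both readings.

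The troponins, the calcium switch of the thin filament, parted by isoform. The 3 of slow and cardiac type were higher in the Differentiating library: TNNT2 had 943 CPM in the Differentiating library, against 97.1 CPM in the Adherent library, TNNI1 had 519 CPM in Differentiating and 65.9 CPM in Adherent, and TNNC1 had 228 CPM in Differentiating and 28.8 CPM in Adherent, with log2 ratios of 3.28, 2.98 and 2.99. The 3 of fast type, known from fast fibres, had lower values: TNNC2 had 65.6 CPM in the Differentiating library, against 832 CPM in the Adherent library (log2 ratio -3.67), TNNT3 had 594 CPM in Differentiating and 1434 CPM in Adherent (-1.27), and TNNI2 had 343 CPM in Differentiating and 483 CPM in Adherent (-0.49), the last of these within 2-fold. Summed per kilobase of exon, slow and cardiac troponins made up 58.7% of the 6 genes in the Differentiating library, against 5.00% in the Adherent library and 60.2% in the Suspension library, a share that does not depend on how the libraries are scaled to each other. All 6 were lower in the Differentiating library than in the Suspension library, by log2 ratios of -2.61 to -1.73. Other contractile genes, too, stood higher against Adherent. MYL3, a slow and ventricular myosin light chain, had 272 CPM in the Differentiating library, against 3.73 CPM in the Adherent library and 975 CPM in the Suspension library. MYL10, another light chain, had 521 CPM in the Differentiating library, against 26.0 CPM in the Adherent library and 1127 CPM in the Suspension library. CSRP3, a Z-disc protein best known from the heart, had 71.1 CPM in the Differentiating library, against 8.66 CPM in the Adherent library and 216 CPM in the Suspension library, and OBSL1, a cytoskeletal linker of the obscurin family, had 48.5 CPM in the Differentiating library, against 1.89 CPM in the Adherent library and 273 CPM in the Suspension library. Each of these 4 was thus above Adherent and below Suspension in the Differentiating library.

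At the other end, TCAP, the titin cap of the Z-disc, had 8 reads or 0.351 CPM in the Differentiating library, against 38.9 CPM in the Adherent library, a log2 ratio of -6.79. MYLK2, the myosin light chain kinase of skeletal muscle, had 6.05 CPM in the Differentiating library, against 72.7 CPM in the Adherent library (-3.59), and MYOT, a Z-disc protein, had 7.41 CPM in Differentiating and 51.6 CPM in Adherent (-2.80). LMOD3, which nucleates thin filaments, had 5.39 CPM in Differentiating and 48.9 CPM in Adherent (-3.18). MYLK2, MYOT and LMOD3 were also at least 2-fold lower than in the Suspension library. Of 14 genes of excitation-contraction coupling, 1 was higher and 7 lower, and 1 and 11 against Suspension, among them SCN4A, the muscle sodium channel, at 3.94 CPM in Differentiating and 35.4 CPM in Adherent, and CACNA1S, the voltage sensor of the t-tubule, at 43.3 CPM in Differentiating and 181 CPM in Adherent. The 9 genes of the neuromuscular junction had 0 higher and 7 lower, and again 0 and 7 against Suspension, with 5 lower in both, led against Adherent by AGRN, the organiser of acetylcholine receptor clusters, at 3.86 CPM in the Differentiating library, against 121 CPM in the Adherent library. CHRND, a receptor subunit, had 24.6 CPM in Differentiating and 236 CPM in Adherent, and RAPSN, the scaffold of the receptor, had 18.0 CPM in Differentiating and 127 CPM in Adherent. CHRNA1, the alpha subunit, did not follow them, at 298 CPM in Differentiating and 159 CPM in Adherent, but had 2674 CPM in the Suspension library.

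**Figure D2:**
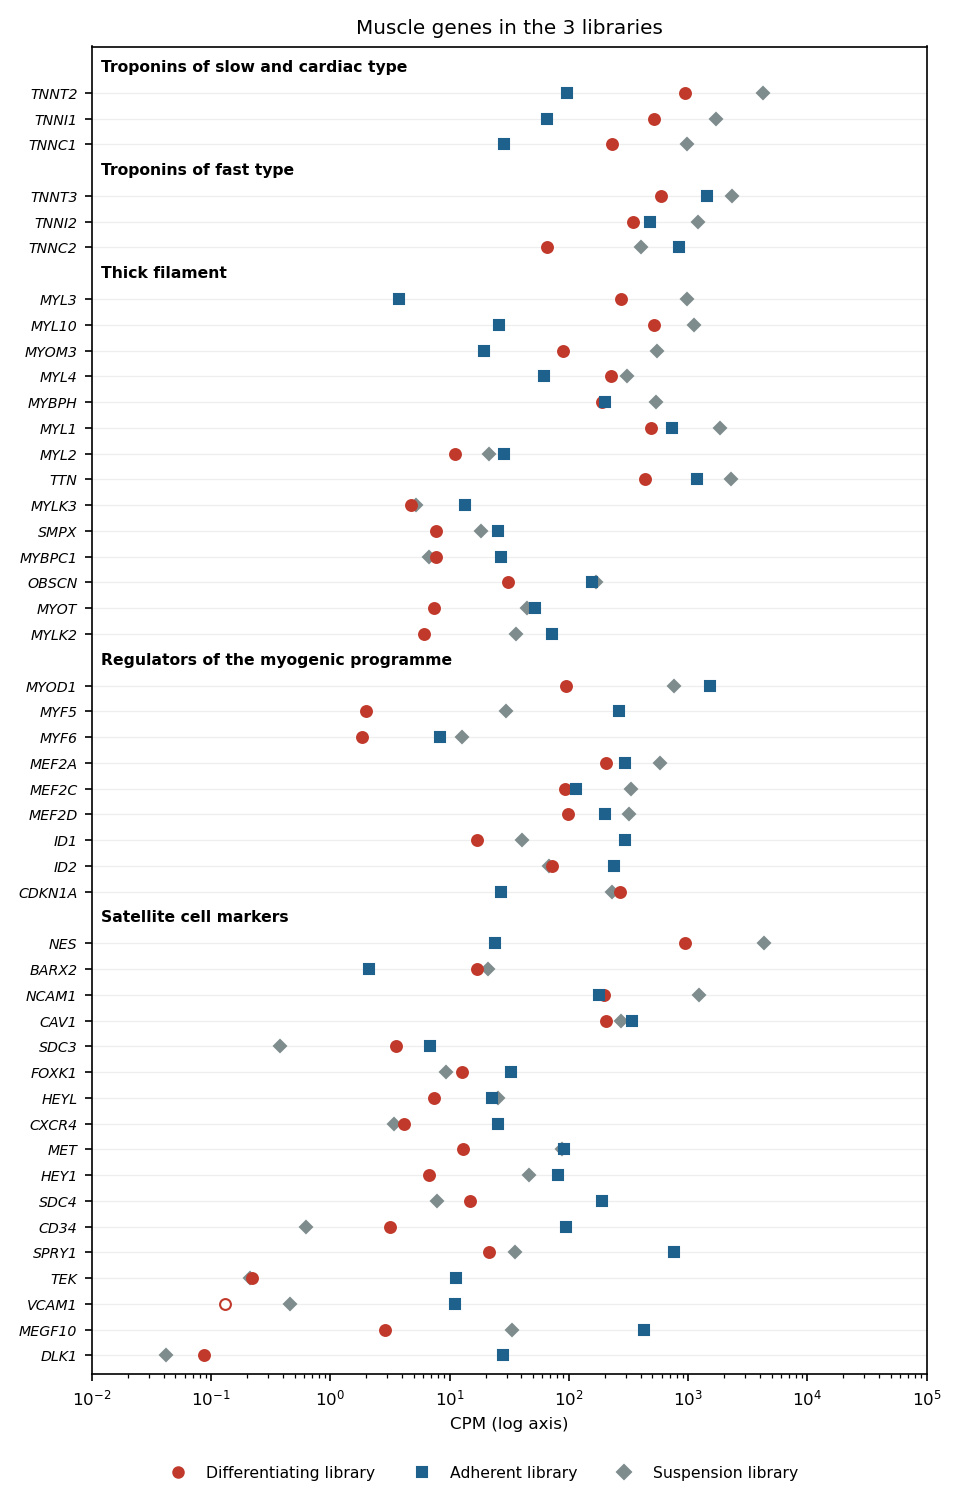
CPM (log axis) of muscle genes in the Differentiating (red circle), Adherent (blue square) and Suspension (grey diamond) libraries, 1 library each, with an open symbol where no read was counted, drawn at 3 reads. The slow and cardiac troponins stand higher in Differentiating than in Adherent, TNNT2 at 943 against 97.1 CPM, while MYOD1, MYF5 and most satellite cell markers stand lower.

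MYOD1, MYF5 and MYF6, factors that commit cells to muscle, were lower in the Differentiating library. MYOD1, the factor of committed myoblasts, had 93.8 CPM in the Differentiating library, against 1522 CPM in the Adherent library and 768 CPM in the Suspension library, log2 ratios of -4.02 and -3.03 against the 2. MYF5, expressed early in proliferating myoblasts, had 1.97 CPM in the Differentiating library, against 263 CPM in the Adherent library and 29.7 CPM in the Suspension library, with ratios of -7.06 and -3.91. MYF6, the factor of later fibres, had 1.84 CPM in Differentiating and 8.25 CPM in Adherent. The MEF2 factors, which act with them on contractile genes, lay closer together: MEF2C had 92.6 CPM in Differentiating and 114 CPM in Adherent, MEF2A 206 CPM in Differentiating and 296 CPM in Adherent, and MEF2D 99.0 CPM in Differentiating and 200.1 CPM in Adherent, and only the ratio of MEF2D, -1.02, reached 2-fold. ID1, which holds such factors in check and is high in dividing cells, had 16.9 CPM in the Differentiating library, against 295 CPM in the Adherent library, a log2 ratio of -4.12. CDKN1A, the cell cycle inhibitor p21 that accompanies myoblast withdrawal from the cycle, was higher, with 268 CPM in the Differentiating library, against 27.2 CPM in the Adherent library, a log2 ratio of 3.30, and 228 CPM in the Suspension library. In all, 4 of 17 regulators were higher and 7 lower against Adherent, and 1 higher and 11 lower against Suspension.

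Of 18 satellite cell markers kept, 13 were lower in the Differentiating library and 2 higher, at a median log2 ratio of -3.20, but only 10 of them reached 5 CPM in the Differentiating library, against 17 in the Adherent library. PAX7, the defining factor of satellite cells, was under the threshold of 5 CPM in both libraries, at 1.10 CPM in Differentiating and 4.93 CPM in Adherent, and was at 24.2 CPM in the Suspension library. SPRY1, which restrains growth factor signalling in quiescent satellite cells, had 21.4 CPM in the Differentiating library, against 759 CPM in the Adherent library (-5.15). MEGF10, a receptor that keeps satellite cells dividing, had 2.85 CPM in Differentiating and 426 CPM in Adherent (-7.22). DLK1, a Notch-like ligand, had 2 reads in Differentiating and 491 in Adherent. VCAM1, an adhesion molecule, had 0 reads in Differentiating and 194 in Adherent, which is 84.6-fold lower with the 0 set to 3 reads. CD34, a marker shared with vessels, had 72 reads in Differentiating and 1657 in Adherent (-4.91). NES, the intermediate filament nestin of myoblasts and young myotubes, was an exception, with 943 CPM in the Differentiating library, against 24.1 CPM in the Adherent library and 4339.6 CPM in the Suspension library, and BARX2, a homeobox factor of muscle precursors, was the other, at 16.8 CPM in Differentiating and 2.12 CPM in Adherent. The exchange left 2 higher and 8 lower among the same 18, at a median of -0.71. These leave out PAX7, which was lower than in the Suspension library by a log2 ratio of -4.47. The labels name a lack of telomerase activity as one of the marks of the differentiated group. TERT, the catalytic subunit of that enzyme, had 0 reads in the Differentiating library and 115 in the Adherent library (6.59 CPM). This is 50.1-fold lower with the 0 set to 3 reads, and TERT had 0 reads in the Suspension library too.

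The genes that carry out cell fusion had no common direction, with 4 of 12 higher and 3 lower. TMEM8C, the older symbol of myomaker, which membranes need in order to fuse, was level at 102 CPM in Differentiating and 98.8 CPM in Adherent (0.04) and had 856 CPM in the Suspension library. CDH2, the N-cadherin that joins myoblasts, had 143 CPM in the Differentiating library, against 15.6 CPM in the Adherent library and 621 CPM in the Suspension library, and MYOF, a membrane repair protein of myoblasts, had 128 CPM in Differentiating and 13.2 CPM in Adherent. KIRREL3, an adhesion protein, had 2 reads in Differentiating and 210 in Adherent, and NFATC2, a transcription factor of myotube growth, had 1.53 CPM in Differentiating and 35.3 CPM in Adherent. The median over the 12 was 0.08, and 0.21 with the headings exchanged.

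Collagens and the enzymes that fold and crosslink them were higher in the Differentiating library, and 5 of its 10 genes with the most reads were collagens. Collagen chains are hydroxylated and folded in the endoplasmic reticulum, trimmed outside the cell and then joined by lysyl oxidases. Of 18 collagens listed as fibrillar and fibril-associated, 11 were higher and 4 lower. Their summed level was 106154 CPM in the Differentiating library, against 14078 CPM in the Adherent library and 31947 CPM in the Suspension library. This list, called the fibrillar collagen list below, also holds collagens of other kinds, such as the type VI chains, COL8A1, COL13A1 and COL28A1. COL1A2, a chain of type I collagen, had 32780.2 CPM in the Differentiating library, against 3977 CPM in the Adherent library and 10967 CPM in the Suspension library, log2 ratios of 3.04 (95% counting interval 3.03 to 3.05) and 1.58. COL3A1, the chain of type III collagen, had 21111 CPM in the Differentiating library, against 3475 CPM in the Adherent library and 5696 CPM in the Suspension library. The 3 chains of type VI collagen, which forms beaded filaments around cells, moved together, with COL6A1 at 16718 CPM in the Differentiating library, against 1038 CPM in the Adherent library, COL6A2 at 12050.3 CPM in Differentiating and 1312 CPM in Adherent, and COL6A3 at 9249 CPM in Differentiating and 546 CPM in Adherent, and log2 ratios of 4.01, 3.20 and 4.08. Against Suspension they were 1.76, 1.66 and 2.30. COL12A1, a collagen that sits on the surface of fibrils, had 2334 CPM in Differentiating and 34.4 CPM in Adherent. The 4 that were lower were minor or cartilage collagens: COL28A1 had 1.14 CPM in the Differentiating library, against 233 CPM in the Adherent library, COL9A2 had 0.219 CPM in Differentiating and 14.7 CPM in Adherent, COL20A1 had 1.40 CPM in Differentiating and 35.5 CPM in Adherent and COL24A1 had 1.49 CPM in Differentiating and 5.90 CPM in Adherent.

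Of 27 collagen processing genes, 23 were higher and 0 lower, with a median of 2.36. SERPINH1, the collagen chaperone of the endoplasmic reticulum, had 3725 CPM in the Differentiating library, against 391 CPM in the Adherent library (3.25). P4HB, a subunit of prolyl hydroxylase, had 2247 CPM in Differentiating and 266 CPM in Adherent (3.08), and P4HA3, a catalytic subunit, had 280.3 CPM in Differentiating and 6.65 CPM in Adherent (5.40). PLOD2, the lysyl hydroxylase of the collagen telopeptides, had 1356 CPM in Differentiating and 234 CPM in Adherent (2.54). LOX, the lysyl oxidase that starts crosslinking, had 75.8 CPM in the Differentiating library, against 4.47 CPM in the Adherent library (4.08), and ADAMTS14, a protease that removes the amino-terminal propeptide, had 38.4 CPM in Differentiating and 0.975 CPM in Adherent (5.30). Under the exchange, 9 of the 27 were higher and 0 lower, at a median of 0.77, where ADAMTS14 came to -0.20, SERPINH1 to 0.71 and LOX to 2.82. The direction of this group was thus the same under both readings and its size was not.

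Basement membrane genes, which code for the sheet that surrounds a fibre and lies over its satellite cells, ran against the other collagens. Of 22, 14 were lower in the Differentiating library and 6 higher, and their sum was 3467 CPM in Differentiating, against 16564 CPM in Adherent and 8751 CPM in Suspension. COL4A5, a chain of type IV collagen, had 6.88 CPM in the Differentiating library, against 1999.6 CPM in the Adherent library and 9.52 CPM in the Suspension library, a log2 ratio of -8.18 against Adherent and -0.47 against Suspension. NID1, the linker nidogen that ties laminin to collagen IV, had 15.8 CPM in the Differentiating library, against 1402 CPM in the Adherent library and 16.3 CPM in the Suspension library (-6.47 and -0.04). NID2, the second nidogen, differed from it in that it was low in the Differentiating library alone, with 104 CPM in the Differentiating library, against 1317 CPM in the Adherent library and 1115 CPM in the Suspension library. COL4A1, a chain found in nearly all basement membranes, had 747 CPM in the Differentiating library, against 2958 CPM in the Adherent library and 2183 CPM in the Suspension library, and LAMC1, the common laminin gamma chain, had 427 CPM in the Differentiating library, against 2584 CPM in the Adherent library and 851 CPM in the Suspension library. COL15A1, which bridges the membrane to fibrils, had 36.0 CPM in Differentiating and 1384 CPM in Adherent. The 6 that were higher included LAMA1, a laminin chain of early tissue, at 30.1 CPM in Differentiating and 3.67 CPM in Adherent, and COL7A1, which anchors membranes to stroma, at 127 CPM in Differentiating and 16.2 CPM in Adherent. Against the Suspension library, 0 were higher and 9 lower.

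**Figure D3:**
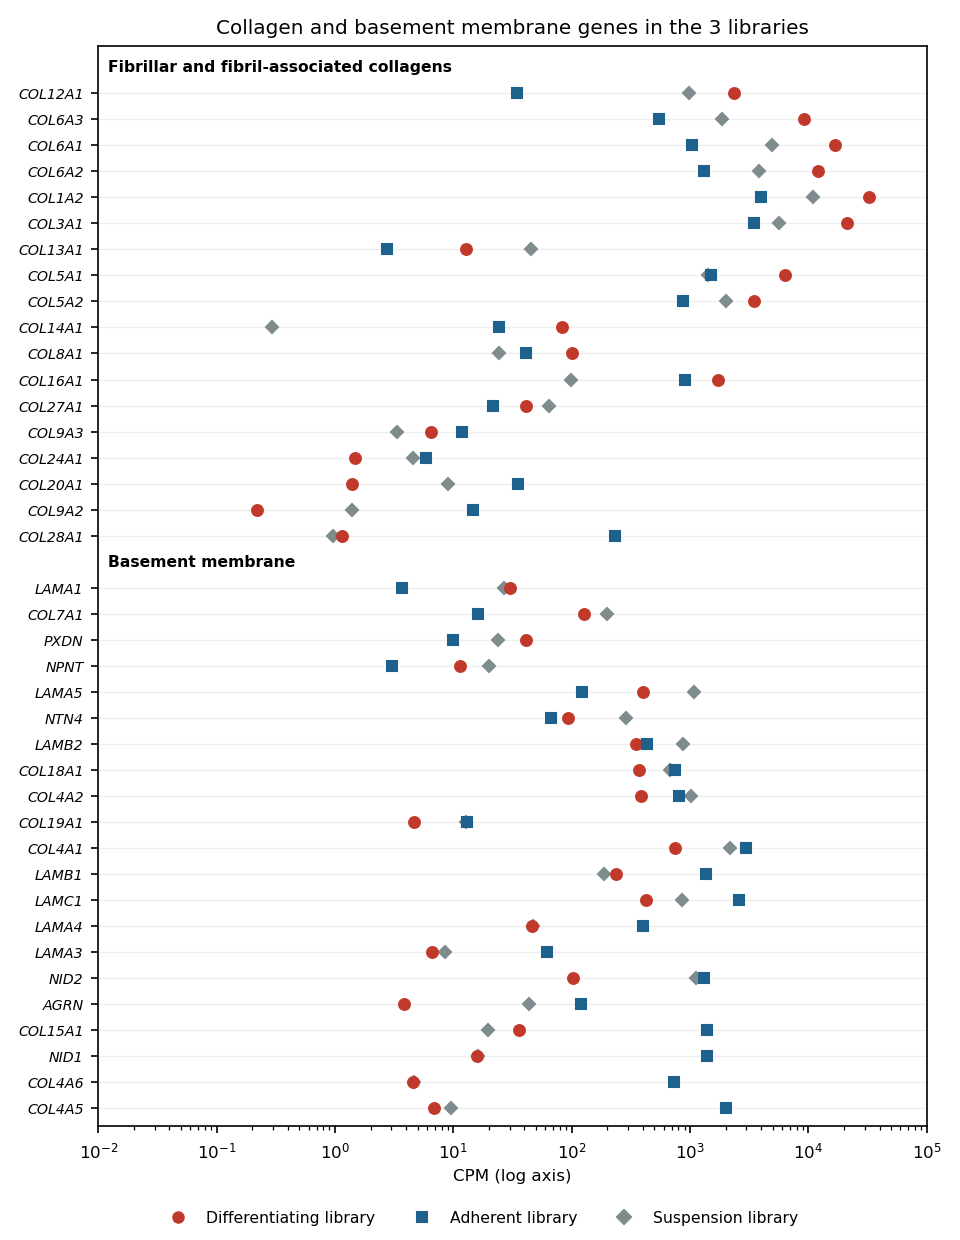
CPM (log axis) of the 18 collagens listed as fibrillar and fibril-associated and of all but 1 of the 22 basement membrane genes kept, in the Differentiating (red circle), Adherent (blue square) and Suspension (grey diamond) libraries, 1 library each. The major collagens are highest in Differentiating, COL6A1 at 16718 against 1038 CPM, whereas COL4A5, NID1 and COL15A1 are far lower there than in Adherent and close to Suspension.

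Among matrix glycoproteins, counted together with elastic fibre genes, 12 of 31 were higher and 10 lower, and 19 higher and 2 lower against Suspension. TNC, tenascin C, a protein of growing and healing tissue, had the largest positive log2 ratio among genes with a symbol, at least 50 CPM in the higher library and at least 10 reads in the lower, a 128-fold difference (95% counting interval of the log2 ratio 6.88 to 7.14), with 3582 CPM in the Differentiating library, against 27.9 CPM in the Adherent library and 2806 CPM in the Suspension library. FN1, fibronectin, had 15529 CPM in the Differentiating library, against 586 CPM in the Adherent library and 3424 CPM in the Suspension library, log2 ratios of 4.73 and 2.18. COMP, a pentameric protein of tendon and cartilage, had 897 CPM in the Differentiating library, against 41.2 CPM in the Adherent library and 33.5 CPM in the Suspension library, and THBS2, a thrombospondin, had 305 CPM in the Differentiating library, against 20.3 CPM in the Adherent library and 6.92 CPM in the Suspension library, so that both were more than 8-fold higher against either library. TGFBI, an adhesion protein induced by TGF-beta, had 3563 CPM in the Differentiating library, against 389.7 CPM in the Adherent library and 420.2 CPM in the Suspension library. SPARC, a collagen-binding protein, had 9342 CPM in Differentiating and 1940.2 CPM in Adherent. On the lower side, ELN, the elastin of elastic fibres, had 20.7 CPM in the Differentiating library, against 1395 CPM in the Adherent library and 2.85 CPM in the Suspension library, MGP, an inhibitor of calcification, had 19.3 CPM in Differentiating and 6095 CPM in Adherent, and MATN1, a cartilage matrix protein, had 1 read in Differentiating and 493 reads in Adherent (log2 ratio -9.33, counting interval -14.64 to -6.85). MATN2, a matrilin of many tissues, had 2.54 CPM in Differentiating and 416 CPM in Adherent.

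Proteoglycans and link proteins were higher in 11 of 28 genes and lower in 6. VCAN, a large proteoglycan of loose tissue, had 515 CPM in Differentiating and 22.2 CPM in Adherent (4.53), and BCAN, a family member known from brain, had 52.2 CPM in Differentiating and 1.15 CPM in Adherent (5.51). Of the small leucine-rich proteoglycans that coat collagen fibrils, DCN and LUM moved less than VCAN and BCAN. DCN had 2104 CPM in Differentiating and 1199 CPM in Adherent (0.81), and LUM had 1521 CPM in Differentiating and 439.9 CPM in Adherent (1.79). OMD, also of that family, had 14.9 CPM in Differentiating and 0.745 CPM in Adherent (4.32). FMOD, which belongs to the same family, was lower at 5.39 CPM in Differentiating and 39.2 CPM in Adherent (-2.86). DCN and LUM were at 164 and 32.0 CPM in the Suspension library, and against that library the group had 17 higher and 1 lower.

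Proteases that cut the matrix, counted together with their inhibitors, were higher in 13 of 34 genes and lower in 12, and against Suspension in 14 and 6. Of the matrix metalloproteases, MMP7, an enzyme of broad substrates, had 889 reads in Differentiating and 1 in Adherent (39.0 and 0.0573 CPM; log2 ratio 9.41, counting interval 6.93 to 14.71). MMP11, an enzyme of stromal cells, had 165 CPM in Differentiating and 8.83 CPM in Adherent (4.22), MMP9, a gelatinase, had 181 CPM in Differentiating and 12.3 CPM in Adherent (3.88), and MMP2, the other gelatinase, had 1281 CPM in Differentiating and 110.1 CPM in Adherent (3.54). ADAM8, a membrane protease, had the largest ratio of the group, 10.17, with 462 CPM in Differentiating and 7 reads or 0.401 CPM in Adherent. ADAMTS1, a protease that cleaves versican and aggrecan, was lower at 94.3 CPM in the Differentiating library, against 4299.9 CPM in the Adherent library and 29.9 CPM in the Suspension library, and with it ADAMTS8 at 4.60 CPM in Differentiating and 125 CPM in Adherent, ADAMTS20 at 4.82 CPM in Differentiating and 118 CPM in Adherent and ADAMTS4, an aggrecan-cleaving enzyme, at 9.47 CPM in Differentiating and 114 CPM in Adherent. Of these 4, ADAMTS1 and ADAMTS4 stood higher in Differentiating than in Suspension, at log2 ratios of 1.66 and 1.16. TIMP2, an inhibitor of metalloproteases, had 1429 CPM in Differentiating and 355 CPM in Adherent, and TIMP4, another, had 17.1 CPM in Differentiating and 102 CPM in Adherent.

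Integrins and their adaptors, through which cells grip the matrix, were higher in 11 of 21 and lower in 5, at a median of 1.16. ITGAV, the alpha chain that binds fibronectin and vitronectin, had 72.3 CPM in the Differentiating library, against 3.67 CPM in the Adherent library and 72.6 CPM in the Suspension library. PARVB and PARVG, adaptors between integrins and actin, had 67.2 CPM in Differentiating and 4.30 CPM in Adherent, and 137 CPM in Differentiating and 13.9 CPM in Adherent. ITGA11, a receptor for fibrillar collagen, had 38.1 CPM in the Differentiating library, against 5.90 CPM in the Adherent library and 1.64 CPM in the Suspension library. ITGA6, a laminin receptor, was lower at 146 CPM in the Differentiating library, against 406 CPM in the Adherent library and 1418 CPM in the Suspension library, and ITGB4, its partner in epithelia, had 0 reads in Differentiating and 188 in Adherent, at least 82.0-fold lower. The exchange turned the median to -0.54, with 2 higher and 5 lower. GJA1, the connexin of gap junctions in mesenchymal cells, had 1257 CPM in the Differentiating library, against 35.4 CPM in the Adherent library and 301 CPM in the Suspension library, one of the 20 largest positive ratios within the limits on CPM and reads given for TNC.

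Genes of the secretory pathway were higher than in the Adherent library but mostly within 2-fold of the Suspension library. Of 36 genes of folding and export from the endoplasmic reticulum, 21 were higher and 2 lower, at a median of 1.22. CREB3L1, a membrane-bound factor known to drive collagen secretion, had 739.6 CPM in the Differentiating library, against 23.0 CPM in the Adherent library (5.00). SEC24D, a coat protein of the vesicles that carry procollagen, had 301 CPM in Differentiating and 30.5 CPM in Adherent (3.30), and ERO1A, the oxidase that forms disulphide bonds, had 197 CPM in Differentiating and 24.8 CPM in Adherent (2.99). HSPA5, the main chaperone of the compartment, was lower at 1036 CPM in Differentiating and 2872 CPM in Adherent (-1.47), and HERPUD1, induced when proteins misfold there, was lower at 52.9 CPM in Differentiating and 607 CPM in Adherent (-3.52). Set against Suspension, 3 of the 36 were higher and 0 lower, at a median of 0.32.

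Genes for the synthesis of sterols and fatty acids were higher in 21 of 24 and lower in 0, at a median of 2.47. The sterol branch is switched on by the factor SREBF2 when sterols are short. SQLE, squalene epoxidase, had 229.8 CPM in the Differentiating library, against 6.59 CPM in the Adherent library and 169 CPM in the Suspension library (5.12 and 0.44). MSMO1, a demethylation enzyme of the same route, had 192 CPM in the Differentiating library, against 6.48 CPM in the Adherent library and 166 CPM in the Suspension library. FDPS, which makes the farnesyl unit, had 192 CPM in the Differentiating library, against 13.1 CPM in the Adherent library and 132 CPM in the Suspension library. SREBF2 itself had 328 CPM in Differentiating and 47.2 CPM in Adherent (2.79). All 3 enzymes were within 2-fold of Suspension, where the group had 2 higher and 1 lower. Genes of the amino acid response, counted together with tRNA synthetases, had the same shape, with 13 of 28 higher and 3 lower against Adherent and 1 each way against Suspension. PHGDH, the entry enzyme of serine synthesis, had 839 CPM in the Differentiating library, against 7.34 CPM in the Adherent library and 447 CPM in the Suspension library, SLC1A4, a neutral amino acid carrier, had 119 CPM in Differentiating and 10.1 CPM in Adherent, and ASNS, asparagine synthetase, had 143 CPM in Differentiating and 12.6 CPM in Adherent. STC2, a secreted protein of the stress response, had the lowest ratio of this group, at 65.5 CPM in the Differentiating library, against 3094 CPM in the Adherent library and 307 CPM in the Suspension library, followed by ATF3, a stress factor that is also an immediate early gene, at 49.3 CPM in Differentiating and 1952 CPM in Adherent. In glycolysis and the citrate cycle, where 8 of 31 genes were higher and 6 lower, and 2 each way against Suspension, PGK1 had 1467 CPM in the Differentiating library, against 120.0 CPM in the Adherent library, ENO1 had 5218 CPM in Differentiating and 577 CPM in Adherent and SLC16A3, the lactate exporter, had 470.0 CPM in Differentiating and 31.5 CPM in Adherent, while PDK4, which shuts pyruvate out of the citrate cycle, had 78.6 CPM in Differentiating and 902 CPM in Adherent.

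Immediate early genes, which switch on within minutes of a stimulus such as serum or the handling of cells, were lower in the Differentiating library almost throughout. Of 24, 21 were at least 2-fold lower in the Differentiating library and 0 higher, and their sum was 3587 CPM in Differentiating, against 41000 CPM in Adherent and 4544 CPM in Suspension. JUN, a subunit of the AP-1 factor, had 269 CPM in the Differentiating library, against 9866 CPM in the Adherent library and 136 CPM in the Suspension library, log2 ratios of -5.20 and 0.98. EGR1, a zinc finger factor, had 142 CPM in the Differentiating library, against 4684 CPM in the Adherent library and 158 CPM in the Suspension library (-5.04 and -0.15). KLF2, a factor induced by flow and serum, had 36.3 CPM in the Differentiating library, against 2682 CPM in the Adherent library and 44.7 CPM in the Suspension library, and DUSP1, a phosphatase that ends MAP kinase signals, had 33.8 CPM in the Differentiating library, against 2171 CPM in the Adherent library and 89.1 CPM in the Suspension library. MYC, which belongs to the same group, differed by less than 2-fold, at 69.6 CPM in Differentiating and 113 CPM in Adherent. Exchanging the headings gave 1 higher and 5 lower at a median of -0.24, so the large difference was one from the Adherent library and not from the Suspension library.

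Heat shock and polyubiquitin genes, which answer unfolded protein, were lower in 11 of 25 and higher in 2, and in 7 and 0 against Suspension. UBB, a polyubiquitin gene, had 2724 CPM in the Differentiating library, against 15501 CPM in the Adherent library and 2763 CPM in the Suspension library. HSPA2, a chaperone of the 70-kDa family, had 228 CPM in the Differentiating library, against 7043 CPM in the Adherent library and 301 CPM in the Suspension library (-4.95 and -0.40), HSP90AA1, the inducible form of its larger partner, had 765 CPM in the Differentiating library, against 5209.8 CPM in the Adherent library and 931 CPM in the Suspension library, and HSPB9, a small heat shock protein, had 32.8 CPM in the Differentiating library, against 2203 CPM in the Adherent library and 35.0 CPM in the Suspension library. The 2 that were higher were SERPINH1, the collagen chaperone given above, and HSPB2, a small heat shock protein of muscle, at 32.4 CPM in Differentiating and 11.9 CPM in Adherent. The chaperones of the mitochondrion lay within 2-fold, with HSPD1 at 651 CPM in Differentiating and 468 CPM in Adherent. In intron reads the median log2 ratio was -3.08 over 17 immediate early genes and -2.04 over 22 heat shock genes, where that over all 9309 genes with enough intron reads was -1.42.

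Genes that mark vessel lining, blood cells and glia had lower summed levels in the Differentiating library. Most of those kept reached 5 CPM in the Adherent library and not in the Differentiating library, so no count of members called is given for them. Of 21 endothelial markers, 5 had 5 CPM or more in Differentiating, 21 in Adherent and 3 in Suspension. Their sum was 139 CPM in Differentiating, against 1087 CPM in Adherent and 45.4 CPM in Suspension. PECAM1, an adhesion molecule of vessel lining, had 2.67 CPM in the Differentiating library, against 154 CPM in the Adherent library and 2.98 CPM in the Suspension library (-5.85). CDH5, the cadherin of that lining, had 5 reads in Differentiating and 1559 in Adherent, and PLVAP, a protein of vessel pores, had 3 and 1875. TIE1, a receptor of the same cells, had 2.72 CPM in Differentiating and 100.3 CPM in Adherent. An exception that was higher was ERG, a factor of endothelium and of cartilage, at 45.2 CPM in Differentiating and 17.4 CPM in Adherent. Of 15 leukocyte and macrophage markers, 0 had 5 CPM or more in Differentiating, 8 in Adherent and 1 in Suspension, with a sum of 15.3 CPM in Differentiating, against 159 CPM in Adherent and 19.9 CPM in Suspension. CSF1R, the macrophage growth factor receptor, had 3.24 CPM in Differentiating and 61.6 CPM in Adherent, and C1QA, a complement gene of macrophages, had 0.132 CPM in Differentiating and 19.9 CPM in Adherent, and 2 of the 15 had no read in the Differentiating library. Of 15 Schwann cell and glial markers, 3 had 5 CPM or more in Differentiating, 8 in Adherent and 4 in Suspension, and their sum was 194 CPM in Differentiating, against 599 CPM in Adherent and 551 CPM in Suspension, with SOX10, the defining factor of glia, at 8 reads in Differentiating and 1146 in Adherent. MYH11, the smooth muscle myosin, had 1.18 CPM in the Differentiating library, against 197 CPM in the Adherent library and 1.01 CPM in the Suspension library, while ACTA2, the smooth muscle actin also made by myofibroblasts, had 699 CPM in Differentiating and 277 CPM in Adherent. Fewer cells of a type and less RNA per cell cannot be told apart in these bulk libraries. Satellite cell and basement membrane genes, several of which vessels also express, had medians below 0 against Adherent, as these markers did. Against Suspension the medians parted, at -0.71 for satellite cell markers and -0.85 for basement membrane genes. Those of endothelial, leukocyte and glial markers were 1.09, 0.06 and -0.26, and the endothelial and leukocyte ones rest on low levels. The part of other cells in the satellite cell and basement membrane ratios was not tested.

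Fibroblast markers were higher in 9 of 15 genes and lower in 3, and in 11 and 2 against Suspension, with a sum of 67086 CPM in Differentiating, against 12194 CPM in Adherent and 23264 CPM in Suspension. THY1, a surface protein of fibroblasts, had 732 CPM in the Differentiating library, against 34.7 CPM in the Adherent library and 253 CPM in the Suspension library, and PRRX1, a homeobox factor of mesenchyme, had 528 CPM in the Differentiating library, against 37.3 CPM in the Adherent library and 196 CPM in the Suspension library. PDGFRA, the defining receptor of fibro-adipogenic cells in muscle, was low in all libraries, at 8.11 CPM in the Differentiating library, against 5.27 CPM in the Adherent library and 0.0419 CPM in the Suspension library. PI16, a marker of adventitial fibroblasts, had 28.6 CPM in the Differentiating library, against 477 CPM in the Adherent library and 4.53 CPM in the Suspension library, and TCF21, a factor of fibroblast precursors, had 3.94 CPM in Differentiating and 35.5 CPM in Adherent, both lower than in Adherent. Of the 6 fibroblast markers taken as defining, 1 was not analysed here, COL1A2 and COL3A1 were more than 2-fold higher under both readings, LUM more than 2-fold under both, and DCN and PDGFRA less than 2-fold against Adherent. The collagens above are in part the same genes, and whether a larger share of such cells carries their ratios was not tested. Cartilage and bone markers held both ends, with 6 of 12 higher and 4 lower, and 8 higher and 2 lower against Suspension, with SOX9, the factor of cartilage, at 22.4 CPM in Differentiating and 4.41 CPM in Adherent and SPP1, osteopontin, at 109 CPM in Differentiating and 6.48 CPM in Adherent on the higher side, and IFITM5, a protein of bone-forming cells, at 3.24 CPM in Differentiating and 208 CPM in Adherent on the lower.

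Genes of DNA replication hardly differed, with 3 of 36 higher and 4 lower at a median of 0.05, and 0 higher and 9 lower against Suspension. RRM2, a subunit of the enzyme that makes deoxynucleotides, had 68.5 CPM in Differentiating and 23.4 CPM in Adherent (1.55), PCNA, the sliding clamp, had 60.3 CPM in Differentiating and 97.4 CPM in Adherent (-0.69), and E2F8, a repressor of the cycle, had 3.94 CPM in Differentiating and 24.5 CPM in Adherent (-2.63). Genes of mitosis were lower in 14 of 36 and higher in 2, at a median of -0.61. MKI67, the nuclear marker of dividing cells, had 20.8 CPM in the Differentiating library, against 68.3 CPM in the Adherent library and 71.4 CPM in the Suspension library, log2 ratios of -1.72 and -1.78. PRC1, which bundles the microtubules of the midzone, had 43.1 CPM in Differentiating and 242 CPM in Adherent (-2.49), and ASPM, a spindle pole protein, had 8.77 CPM in Differentiating and 39.6 CPM in Adherent (-2.18). Against Suspension, 24 of the 36 mitosis genes were lower and 0 higher at a median of -1.19, and 12 were lower under both readings. SESN3, a regulator of growth signalling, had 109 CPM in Differentiating and 5.85 CPM in Adherent (4.22), and SESN1, its relative, had 112 CPM in Differentiating and 1255 CPM in Adherent (-3.49).

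The 59 cytosolic ribosomal protein genes had medians of opposite sign under the 2 readings, and 57 of them lay within 2-fold of Adherent. Against Adherent, 0 were higher and 2 lower, and the median was -0.56, with a sum of 42214 CPM in Differentiating and 61263 CPM in Adherent. Against Suspension, at 23649 CPM, 24 were higher and 0 lower at a median of 0.91. The elongation factor EEF1A1 followed them, with 9194 CPM in the Differentiating library, against 11424 CPM in the Adherent library and 5462 CPM in the Suspension library. Nuclear genes of oxidative phosphorylation had 42 of 44 within 2-fold at a median of -0.20, and -0.30 against Suspension. Mitochondrial transcripts, whose reads the table places outside exons, were lower: COX1, a subunit of cytochrome oxidase, had 13012 reads scaled like CPM in Differentiating, 33739 in Adherent and 18251 in Suspension, and such transcripts took 2.97%, 6.56% and 4.33% of gene reads in that order.

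Growth factors and their receptors were lower in 24 of 46 genes and higher in 9, but with the headings exchanged 14 were higher and 14 lower, at a median of -0.13. All 46 reached 5 CPM in the Adherent library and 37 did in the Differentiating library, so the count of lower genes follows in part from the filter. PGF, a growth factor of the VEGF family, had 576 CPM in the Differentiating library, against 6.59 CPM in the Adherent library and 33.4 CPM in the Suspension library, and was the most raised of them. FGF16, a fibroblast growth factor, had 67.5 CPM in the Differentiating library, against 7.34 CPM in the Adherent library and 0.881 CPM in the Suspension library, and IGFBP4, a binding protein of insulin-like growth factors, had 430.2 CPM in the Differentiating library, against 62.1 CPM in the Adherent library and 96.0 CPM in the Suspension library. IGFBP3, another binding protein, had 10.0 CPM in Differentiating and 357 CPM in Adherent, and SPRY2, a feedback inhibitor that receptor signalling induces, had 29.5 CPM in Differentiating and 842 CPM in Adherent. FGFR4, the receptor of myoblasts, had 40.1 CPM in the Differentiating library, against 613 CPM in the Adherent library, a log2 ratio of -3.93 that came to -2.32 against the Suspension library, and MET, the receptor through which satellite cells are activated, had 12.9 CPM in the Differentiating library, against 90.2 CPM in the Adherent library and 86.8 CPM in the Suspension library. Of 32 TGF-beta, BMP and activin genes, 7 were higher and 13 lower, at a median of -0.48, whereas against Suspension 9 were higher and 4 lower, at 0.11. TGFB3, a ligand of that family, had 1014 CPM in the Differentiating library, against 133 CPM in the Adherent library and 1404 CPM in the Suspension library, and BMP4, which keeps muscle precursors dividing, had 11.6 CPM in the Differentiating library, against 334 CPM in the Adherent library and 80.8 CPM in the Suspension library. CHRDL2, an inhibitor that binds BMPs, had 14.8 CPM in Differentiating and 0.745 CPM in Adherent, and INHBA, the activin A subunit, had 61.5 CPM in Differentiating and 10.6 CPM in Adherent.

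The Notch pathway, which holds satellite cells in the undifferentiated state, was lower in 9 of 21 genes and higher in 3. DLL1, a ligand that myoblasts present, had 2.32 CPM in the Differentiating library, against 105 CPM in the Adherent library and 6.21 CPM in the Suspension library, and HEY1, a target of the receptor, had 6.75 CPM in the Differentiating library, against 81.4 CPM in the Adherent library and 46.0 CPM in the Suspension library. HES4, another target, had 4.60 CPM in Differentiating and 97.0 CPM in Adherent, and JAG2, a ligand, had 35.3 CPM in Differentiating and 198 CPM in Adherent. HEY2, a target known from heart and vessels, was higher, at 77.6 CPM in Differentiating and 5.04 CPM in Adherent. Against Suspension, 2 were higher and 8 lower. Wnt genes went both ways. Of 36, 12 were higher and 16 lower, and 7 higher and 5 lower against Suspension, with RSPO4, a ligand that strengthens Wnt signals, at 85.5 CPM in the Differentiating library, against 0.344 CPM in the Adherent library and 4.19 CPM in the Suspension library, and LGR5, a receptor for such ligands, at 19.4 CPM in Differentiating and 1.38 CPM in Adherent. WNT10A, a ligand, had 237 reads in Differentiating and 0 in Adherent, which is 60.4-fold higher with the 0 set to the floor of 3 reads. ROR2, a receptor for WNT5A, had 46.8 CPM in Differentiating and 3.38 CPM in Adherent, whereas that ligand, WNT5A, had 10.8 CPM in Differentiating and 80.4 CPM in Adherent. FZD4 and FZD5, receptors, had 15.7 CPM in Differentiating and 126 CPM in Adherent, and 2.06 CPM in Differentiating and 31.4 CPM in Adherent. Inflammatory mediators had 12 of 31 higher and 11 lower, and 12 higher and 2 lower against Suspension, with PTGS2, the inducible cyclooxygenase, at 242 CPM in the Differentiating library, against 30.4 CPM in the Adherent library and 25.2 CPM in the Suspension library and CXCL14, a chemokine, at 35.7 CPM in Differentiating and 3.38 CPM in Adherent on the higher side, and NFKBIA, the inhibitor of NF-kappa B that it induces, at 22.2 CPM in Differentiating and 468 CPM in Adherent on the lower.

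Of 7 neuronal genes, 5 were higher and 2 lower, and 2 each way against Suspension, with DCX, a microtubule protein of young neurons, at 260.2 CPM in the Differentiating library, against 11.9 CPM in the Adherent library and 382 CPM in the Suspension library and TUBB3, a neuronal tubulin, at 231 CPM in Differentiating and 49.9 CPM in Adherent. The list of HOX, TBX and mesenchymal homeobox genes had 5 of 17 higher and 6 lower, and 9 higher and 4 lower against Suspension. PRRX2, a homeobox factor of limb mesenchyme, had 129 CPM in the Differentiating library, against 1.32 CPM in the Adherent library and 9.14 CPM in the Suspension library. SIM2, which is no homeobox factor and is known to restrain MYOD1, had 26.1 CPM in the Differentiating library, against 246 CPM in the Adherent library and 154 CPM in the Suspension library. Adipocyte lineage genes had 3 of 17 higher and 5 lower, which turned to 8 higher and 1 lower against Suspension, with CD36, a fatty acid carrier also made by vessels, at 36.7 CPM in the Differentiating library, against 748 CPM in the Adherent library and 1.51 CPM in the Suspension library, and APOA1, an apolipoprotein, at 5682 CPM in the Differentiating library, against 7691 CPM in the Adherent library and 63.3 CPM in the Suspension library. Redox genes had 11 of 30 higher and 5 lower, and 8 higher and 0 lower against Suspension, led by GPX7, a peroxidase of the endoplasmic reticulum, at 42.6 CPM in Differentiating and 3.21 CPM in Adherent, and ending in GSTA4, a glutathione transferase, at 5.83 CPM in Differentiating and 189 CPM in Adherent. Axon guidance genes had 9 of 38 higher and 14 lower, connexins and cadherins 8 of 27 and 12, and ion channels 4 of 22 and 11. Pericyte and smooth muscle markers had 7 of 23 higher and 10 lower, interferon response genes 4 of 15 and 3, autophagy and lysosome genes with muscle ubiquitin ligases 5 of 33 and 13, creatine and glycogen genes 2 of 12 and 4, cyclin D and p53 target genes 4 of 20 and 6, and epithelial genes 1 of 7 and 4. Against Suspension the counts of higher and lower genes were 5 and 9 for axon guidance, 6 and 8 for connexins and cadherins, 4 and 8 for ion channels, 5 and 9 for pericyte and smooth muscle markers, 2 and 2 for the interferon response, 3 and 6 for autophagy and lysosome, 0 and 3 for creatine and glycogen, 1 and 3 for cyclin D and p53 targets, and 0 and 0 for epithelial genes.

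**Figure D4:**
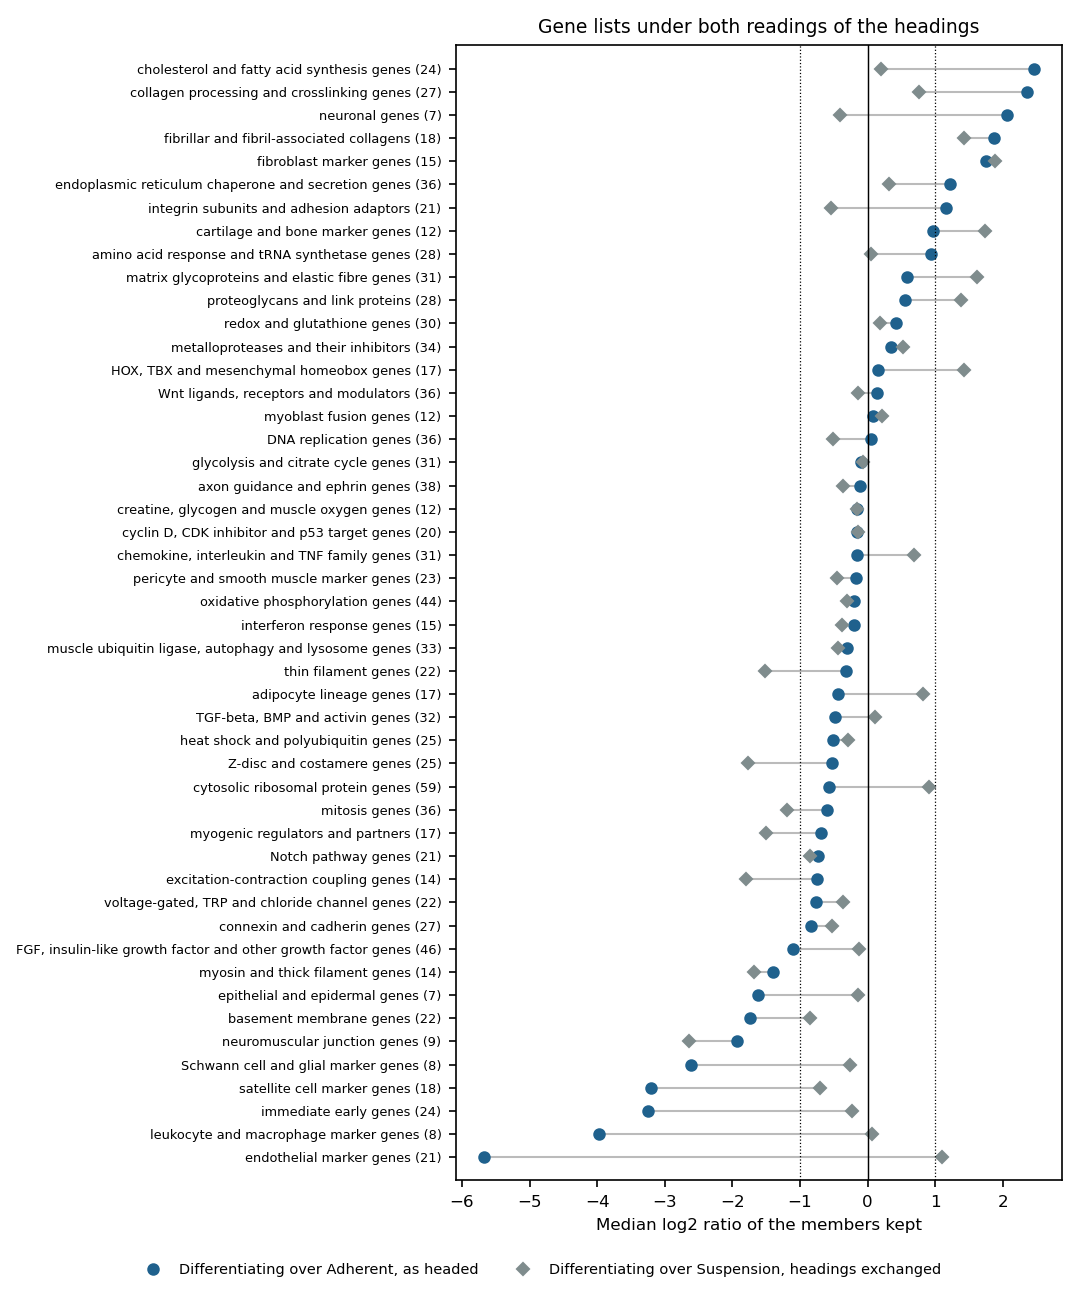
Median log2 ratio of the members kept for each of 48 gene lists, with the number kept in brackets, as Differentiating over Adherent (blue circle) and, with the headings exchanged, as Differentiating over Suspension (grey diamond), with dotted lines at 2-fold. Sterol synthesis stands at 2.47 as headed and 0.20 exchanged, immediate early genes at -3.26 and -0.24, and the fibrillar collagen list at 1.87 and 1.42.

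Exchanging the Suspension and Adherent headings altered most calls. Of the 1941 genes called higher against Adherent, 432 (22.3%) were also at least 2-fold higher against Suspension, 1337 lay within 2-fold and 172 (8.86%) were at least 2-fold lower. Of the 2479 called lower, 717 (28.9%) were also lower, 1390 lay within 2-fold, 279 (11.3%) were at least 2-fold higher, and 93 had too few reads for a ratio. Both ratios share the Differentiating library, so the calls that agree are not independent of each other. By gene list, 17 of 48 medians were at least 1 in size against Adherent, of which 13 kept their sign and 4 kept both the sign and that size. These 4 were the fibrillar collagen list, the fibroblast markers, the thick filament and the neuromuscular junction. With the mean in place of the median, the ratio to Adherent came to 0.72 for the fibrillar collagen list and to -0.19 for the thick filament. Among genes far from both libraries, TTC29, a gene of cilia, had 68.1 CPM in the Differentiating library, against 1.55 CPM in the Adherent library and 0.168 CPM in the Suspension library, AKR1D1, a steroid reductase, had 381 CPM in the Differentiating library, against 9.57 CPM in the Adherent library and 0.336 CPM in the Suspension library, and FNDC1, a fibronectin-type protein, had 656 CPM in the Differentiating library, against 55.3 CPM in the Adherent library and 43.2 CPM in the Suspension library. On the lower side, OPTC, a small leucine-rich proteoglycan, had 1.31 CPM in the Differentiating library, against 146 CPM in the Adherent library and 26.8 CPM in the Suspension library, MCAM, an adhesion molecule of pericytes and endothelium, had 38.6 CPM in the Differentiating library, against 562 CPM in the Adherent library and 462 CPM in the Suspension library, and PENK, the precursor of enkephalins, had 50.6 CPM in the Differentiating library, against 483 CPM in the Adherent library and 501 CPM in the Suspension library. Each of these 6 genes was lower or higher by at least 8-fold against either library.

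The libraries also differed in what kind of read they held. Intron reads, which come from unspliced RNA or from DNA, made up 12.0% of the gene reads of the Differentiating library, against 24.3% in the Adherent library and 15.2% in the Suspension library, and 8.38%, 16.9% and 10.0% in the same order without mitochondrial genes and UFL1, which among the nuclear genes kept had the most intron reads in each library. Intron counts were scaled to the exon totals, so a smaller share of intron reads in a library lowers its intron ratios throughout. On that scale the median intron log2 ratio of Differentiating over Adherent was -1.42 over 9309 genes with at least 20 intron reads. Most of these 9309 genes were thus at least 2-fold lower in introns, against which the next counts are read. Of 2068 genes called lower with enough intron reads, 1929 were at least 2-fold lower in introns too. Of 1588 called higher, 357 were at least 2-fold higher in introns and 468 at least 2-fold lower, and their median was -0.17, which lies above the median of all genes. Reads across exon-exon junctions, which come only from spliced RNA, kept the sign in 1747 of 1754 genes called higher and in 2001 of 2009 called lower. By group, the junction median was 2.02 for the fibrillar collagen list, 2.22 for collagen processing, 2.27 for sterol synthesis and -3.05 for immediate early genes. In 4 lists with a median under 1 in size the junction median had the other sign, at 0.17 for excitation-contraction coupling against -0.75 in exon reads, -0.32 for cartilage and bone markers against 0.96, -0.22 for DNA replication against 0.05, and 0.03 for the interferon response against -0.21. The part of the intron reads in the exon ratios was not tested.

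**Figure D5:**
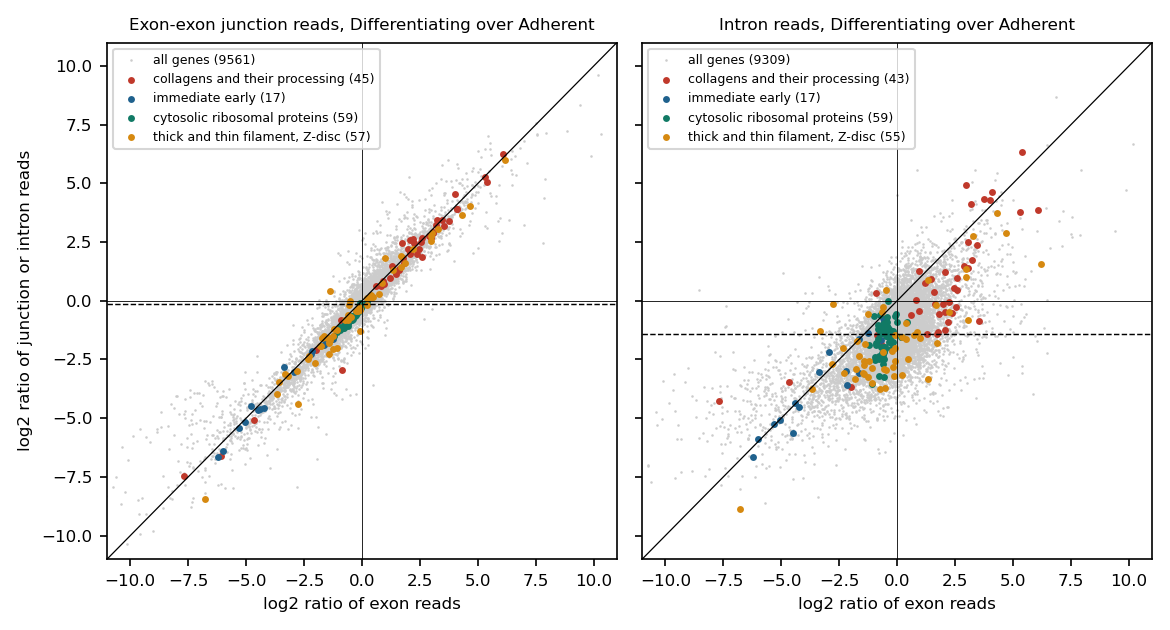
Log2 ratio of Differentiating over Adherent in exon reads (x) against that in exon-exon junction reads (left) and intron reads (right), 1 point per gene with at least 20 such reads, the solid line at equal values and the dashed line at the median of all genes. Junction reads, scaled to junction totals, follow exon reads along the line. Intron reads, scaled to exon totals, are shifted down to a median of -1.42, and the collagen genes (red) lie mostly above that median.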

How the data were processed

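RNA of 3 pooled libraries, 1 per group, was sequenced. The submitters' processing notes name bcl2fastq 2.20 and STAR 2.5.2b, and the study's methods add FastQC, Skewer, featureCounts and NOISeq. Those methods describe mapping to a turkey genome with an Ensembl annotation, but the sources used here do not say that the deposited table, with its gene symbols of the NCBI kind and its intron and junction reads, was made that way, so the build of its positions is not settled. Deposited counts are unscaled whole reads per gene on exons, with intron, junction, unique and whole-gene reads beside them. The authors' RPKM values and their fold changes, which are signed ratio scores of unscaled counts, were not used as results, and the fold changes served only to trace which columns their headings name. A further 27 columns were not used.

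CPM are exon counts scaled to the exon total of the same library (1 read is 0.0438 CPM in Differentiating, 0.0573 in Adherent and 0.0419 in Suspension). Genes with at least 5 CPM in either library were kept, the highest gene left out being at 4.996 CPM and the lowest kept at 5.04. A call was a ratio of at least 2-fold with no pseudocount. Intron counts were scaled to the exon total of the same library, and junction counts to its junction total. A count of 0 was set to the floor of 3 reads, and genes at or below it in both libraries got no ratio. Intervals of 95% are exact (Clopper-Pearson) and cover counting error only. No p-value was computed, since each group is 1 library. The ratio step was checked on simulated data.

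The 48 gene lists and the rule for named genes were chosen with earlier results of these data known, so no list is independent evidence. For each list, the rule takes the 4 most raised and 4 most lowered members and the 3 with the most reads. It adds the 20 highest and 20 lowest genes and the 15 highest and lowest against both libraries, all with a symbol, 50 CPM on the higher side and 10 reads on the other, the 10 with the most reads in each library, and a fixed set of muscle and cycle genes. ADAMTS4, CD34, FGFR4, FZD4, HSPD1, MEF2C, MEF2D, MET, SOX9, TIMP4 and WNT5A fall outside it and were chosen after their values were seen, and PDGFRA is a cell type marker. Older symbols were used where the table has them. List members with no row were not analysed here, and some genes that the rule takes are not reported here. Near-identical genes, such as those of ribosomal proteins, ubiquitin and actins, may share reads, and the unique share of exon reads was 96.1% in Differentiating, 95.5% in Adherent and 95.5% in Suspension. Python 3.11.15, numpy 2.4.6, pandas 2.3.3, scipy 1.17.1 and matplotlib 3.10.9 were used, and edgeR 4.0.16 in R 4.3.3 for TMM factors only. The alternatives were other scalings, pseudocounts, filters, fold limits, unique and junction reads, list means, and the exchange of headings.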

Additional observations from a re-analysis of the deposited data

How the results depend on the processing

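No paired analysis was possible because each group is 1 library. The exchange of headings changed most of the results. Under it 826 genes were higher and 1430 lower, and the median over all genes was -0.18. Its list medians were -0.54 for integrins, 1.09 for endothelial markers, 0.06 for leukocyte markers and -0.41 for neuronal genes, each of the opposite sign to the median against Adherent. The endothelial and leukocyte medians rest on low levels. Only 5 of 21 endothelial markers reached 5 CPM in Differentiating and 3 in Suspension, and of 15 leukocyte markers 0 and 1. Of the 198 named genes, 49 that were called against Adherent had a log2 ratio of the opposite sign against Suspension. Those lower than Adherent and higher than Suspension had log2 ratios to Suspension as follows: CD36 4.60, TIE1 4.43, FMOD 4.01, IFITM5 3.69, PDK4 3.01, ELN 2.86, CSF1R 2.69, PI16 2.66, CD34 2.33, ADAMTS1 1.66, SOX10 1.48, TCAP 1.48, TIMP4 1.38, WNT5A 1.31, ADAMTS4 1.16, NFATC2 1.11, JUN 0.98, COL15A1 0.88, HSPA5 0.45, FZD5 0.26, COL28A1 0.24, MYH11 0.23, HERPUD1 0.23, ACTA1 0.05, GSTA4 0.05. The value of TCAP rests on the floor of 3 reads, since no read was counted in Suspension. Several of these genes were under 5 CPM in both Differentiating and Suspension, among them TIE1, IFITM5, CSF1R, CD34, SOX10, NFATC2, FZD5, COL28A1 and MYH11. Those higher than Adherent and lower than Suspension had these: HSPB2 -2.70, OBSL1 -2.50, NES -2.20, TNNT2 -2.16, CDH2 -2.12, TNNC1 -2.09, MYL3 -1.84, TNNI1 -1.73, LGR5 -1.68, CSRP3 -1.60, PARVG -1.32, PARVB -1.30, MYL10 -1.11, WNT10A -0.95, COL7A1 -0.64, DCX -0.56, ROR2 -0.51, TGFB3 -0.47, TUBB3 -0.41, RRM2 -0.35, BARX2 -0.31, SREBF2 -0.28, ADAMTS14 -0.20, ITGAV -0.01.

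Scaling moved the median of all genes to 0.10 with median-of-ratios factors and to 0.06 with totals that leave out the 10 most abundant genes, and the counts under these, TMM and upper quartile scaling were within 1.5 times of those given. Of the lists with a median of 1 or more in size, none changed sign under a scaling, a pseudocount, unique reads, junction reads or the mean. The mean was, however, far smaller for the fibrillar collagen list (0.72), the integrins (0.54) and the thick filament (-0.19). Of the smaller ones, the fusion genes had a mean of -0.75, the glycoproteins of -0.04 and the cartilage and bone markers of -0.36, each against a positive median. The same held for Wnt genes (-0.14) and DNA replication (-0.06). Glycolysis and the citrate cycle (0.28) and inflammatory mediators (0.02) had positive means against a negative median. A pseudocount of 10 CPM gave 1090 genes higher and 1490 lower. Without a filter 4493 were lower, at a median of -0.22, and at 50 CPM or more 937 were higher and 1097 lower. A limit of 1.5-fold gave 3002 higher, and one of 4-fold 735 higher and 1286 lower. Junction reads, an alternative chosen after seeing the data, gave a median of -0.18. Leaving out a replicate was not possible. With 1 library per group the spread between cultures, which decides how far a 2-fold difference can be trusted, was not measured.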
